A study of Mus musculus with 22 samples.

Results

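Serpina3n, a mouse gene for a secreted serine protease inhibitor of the serpin family, was described across cell types of the hypothalamus that had enough cells. The mice had received a single intracerebroventricular injection of fibroblast growth factor 1 (FGF1) or vehicle. The gene was 1 of 20668 genes counted in nuclei and 1 of 16304 genes counted in whole cells, and it was chosen by its measured level in FGF1 against vehicle mice in these same libraries. Its FGF1 to vehicle differences, its levels and its shares of positive cells are therefore given as a description, without a test. All mice were male ob/ob mice, which lack leptin and are obese and diabetic, were 11 weeks old at injection, and received 3 µg of recombinant human FGF1 or vehicle into the lateral ventricle. Vehicle mice were pair-fed to the FGF1 mice. Nuclei came from hypothalamic punches of 3 FGF1 and 3 vehicle mice 24 h after injection (Day 1; 8620 and 4586 nuclei) and of 2 FGF1 and 2 vehicle mice on Day 5 (7986 and 3773 nuclei). Whole cells came from the mediobasal hypothalamus of other mice, 6 given FGF1 and 6 given vehicle, on Day 5 (25767 and 29123 cells). Each library held 1 mouse.

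Serpins inhibit proteases by offering a reactive loop as bait and trapping the enzyme in a covalent complex. The mouse Serpina3 genes form a cluster of close copies that corresponds to a single human gene, SERPINA3, which encodes the plasma protein alpha-1-antichymotrypsin. In brain, Serpina3n is best known as a gene that reactive astrocytes switch on after injury or inflammation and that a disease-associated state of oligodendrocytes also carries. In other tissues it belongs to the acute-phase response. Cytokines that signal through the gp130 receptor to STAT3, and glucocorticoids acting on their receptor, are known to raise its transcription.

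Serpina3n lay on chromosome 12 of the GRCm38 build (chr12:104406729-104414329, plus strand), spanned 7601 bases and had 5 exons. No other annotated gene overlapped it. The nearest genes were Serpina3m, ending 12472 bases before it on the same strand, and the small nucleolar RNA gene Gm24334, beginning 4944 bases after it on the opposite strand. Because family members resemble each other, reads could be split among them, and the gene's counts carry that uncertainty. Counts assigned to its relatives were small beside the 3198 Serpina3n UMIs (unique molecular identifiers, each counting 1 captured RNA molecule) in nuclei. Serpina1b had 180 UMIs, Serpina3m had 76 and Serpina3i had 35 in nuclei. In whole cells, Serpina3n had 3280 UMIs, Serpina3g had 16 and Serpina3f had 14.

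The promoter of Serpina3n is shown because its known regulators act through short DNA motifs. The 250 bases that precede the RefSeq start are given in GRCm38.p6 coordinates, plus strand (chr12:104406458-104406707). Capitals mark matches to AGAACA, the core of a glucocorticoid receptor site, and to a loose form of an NF-kappa-B site, GGG and CC separated by any 5 bases.
Serpina3n: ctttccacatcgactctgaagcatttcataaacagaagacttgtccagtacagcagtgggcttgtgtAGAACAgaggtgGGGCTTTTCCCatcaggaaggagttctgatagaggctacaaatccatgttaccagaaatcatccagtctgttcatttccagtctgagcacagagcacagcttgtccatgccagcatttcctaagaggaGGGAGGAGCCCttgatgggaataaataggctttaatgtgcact
Both strands were searched. AGAACA matched 1 time, 183 bases before the start, and 16.1% of 32851 promoters of the same length held it. The NF-kappa-B motif matched 4 times at overlapping positions 171, 170, 43 and 42 bases before the start, and 45.8% of promoters held it. The STAT motif TTCNNNGAA, the AP-1 motif TGANTCA, the full glucocorticoid receptor palindrome (AGAACA and TGTTCT separated by any 3 bases) and TATAAA had no match in this window (7.02%, 6.75%, 0.00913% and 12.4% of promoters). A match is only a match of letters in this window.

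The libraries held 2721087 to 16345981 UMIs in nuclei and 2652897 to 11866269 UMIs in whole cells. On Day 1 the FGF1 nuclei were shallower than the vehicle nuclei, with median depths of 2029 to 2816 and 3178.5 to 3776 UMIs per nucleus and no overlap between the groups. Cell types of the nuclei were the authors' annotation, and those of the whole cells were named here from marker genes over the deposited clusters and are written as "-like". In nuclei, own markers were highest in the named type for 6 of 6 astrocyte, 5 of 6 tanycyte, 5 of 5 ependymal, 3 of 3 Agrp neuron, 5 of 6 oligodendrocyte, 4 of 6 committed precursor and 5 of 6 microglial markers. Nuclei annotated as oligodendrocytes, committed oligodendrocyte precursors and microglia carried neuronal marker RNA close to the neuronal level, at 3312 to 3603, 2177 to 2880 and 3168 to 3851 counts scaled to a common total (CPM, UMIs per 1e+06 UMIs) in Day 1 FGF1 mice against 3597 to 4235 in unmapped neurons. Its part in the Serpina3n values of those 3 types was not tested. The nuclear annotation had no separate class for oligodendrocyte precursors. The paper lists precursors and committed precursors together for Day 1 nuclei, so nuclei called committed precursors here may hold both. In whole cells neuronal markers reached at most 512 CPM in any type. The whole-cell library of FGF1 mouse 6 stood apart in Serpina3n. Log2 fold changes are given with and without it in astrocyte-like, oligodendrocyte-like, tanycyte-like, ependymal-like and microglia-like cells. The other whole-cell types were not fitted without it. Correlations over mice are also given with and without it. At most 32 cell barcodes were shared by any 2 nuclear libraries and at most 81 by any 2 whole-cell libraries.

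Of all Serpina3n UMIs in nuclei, 87.1% came from the 3 FGF1 mice of Day 1, 4.50% from the Day 1 vehicle mice, 6.79% from the Day 5 FGF1 mice and 1.56% from the Day 5 vehicle mice. In whole cells on Day 5, 72.1% came from FGF1 mice and 27.9% from vehicle mice. Astrocytes of the Day 1 FGF1 mice alone gave 44.6% of all nuclear Serpina3n UMIs. Unmapped neurons of these mice, the largest class of nuclei, gave 16.1% and Agrp neurons gave 4.03%.

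Astrocytes, the supporting glia that respond to injury by becoming reactive, had the highest Serpina3n level of any type 24 h after FGF1. Levels are given as CPM of the UMIs summed over all nuclei of a type in a mouse, after trimmed-mean (TMM) scaling. FGF1 mice 1, 2 and 3 had 871, 1008 and 585 CPM in astrocytes, from 902, 425 and 99 Serpina3n UMIs in 388, 113 and 52 nuclei. Vehicle mice 1, 2 and 3 had 9.03, 29.1 and 34.2 CPM, from 2, 17 and 6 UMIs in 57, 148 and 45 nuclei. Every FGF1 mouse lay above every vehicle mouse, and the lowest FGF1 value was far above the highest vehicle value. The means were 821 ± 216 and 24.1 ± 13.3 CPM (SD, n = 3 and 3), a 34.1-fold ratio and a fitted log2 fold change of 5.05 ± 0.70 (SE). Within the 3 batches, each of which held 1 FGF1 and 1 vehicle mouse, the log2 ratio ran from 4.28 to 6.65.

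The higher level in astrocytes was spread over many nuclei. Serpina3n was detected in 349 of 553 astrocyte nuclei of the FGF1 mice, with a median of 3 UMIs in positive nuclei, a maximum of 27 and 96 nuclei with 5 or more. In vehicle mice 22 of 250 astrocyte nuclei were positive and none had more than 2 UMIs. Per mouse, 57.7 to 78.8% of astrocyte nuclei were positive after FGF1 and 3.51 to 11.1% after vehicle. Since FGF1 nuclei were shallower, every nucleus was also thinned at random to 1000 UMIs, which gave 34.6 to 53.1% and 0 to 4.44%. The thinned log2 fold change was 4.97 ± 0.85. Microglia, the immune cells of the brain, served as the comparison type for free RNA, and 4.35 to 15.7% of their nuclei were positive after FGF1 (0 to 4.11% thinned) and 0 to 4.17% after vehicle (0% thinned). Median depth was 2386 to 2875 UMIs in FGF1 astrocytes and 2474 to 4363 in FGF1 microglia. The astrocyte share lay above this background in each FGF1 mouse. The 6 astrocyte markers themselves summed to 1623 to 3052 CPM in the FGF1 astrocytes and 3089 to 4271 in the vehicle astrocytes of Day 1. Serpina3n gave 247 to 428 UMIs for each 1000 astrocyte-marker UMIs after FGF1 and 2.14 to 12.0 after vehicle.

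Agrp neurons, the arcuate neurons that drive feeding and that are overactive without leptin, had the next highest level. The cluster annotated n13.Agrp/Gm8773 had 477, 342 and 204 CPM in FGF1 mice 1, 2 and 3. The vehicle mice had 0, 8.996 and 48.9 CPM. The groups did not overlap, and no Agrp value of an FGF1 mouse reached the lowest FGF1 astrocyte value. The means were 341 ± 137 and 19.3 ± 26.0 CPM (SD, n = 3 and 3), with a log2 fold change of 4.82 ± 0.74 and within-batch log2 ratios of 3.26 to 8.42. Serpina3n was detected in 75 of 145 Agrp nuclei after FGF1, with at most 5 UMIs, and in 3 of 82 after vehicle, with at most 1 UMI. Per mouse the shares were 25.0 to 63.6% (18.8 to 30.2% thinned) and 0 to 13.3% (0 to 13.3% thinned), above the microglial background in every FGF1 mouse. The thinned log2 fold change was 3.04 ± 0.84.

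The Agrp nuclei held few astrocyte-marker UMIs beside their Serpina3n. In the 3 FGF1 mice these nuclei held 87, 34 and 8 Serpina3n UMIs beside 10, 6 and 0 UMIs of the 6 astrocyte markers together. Where astrocyte-marker UMIs were present, there were 5667 to 8700 Serpina3n UMIs per 1000 of them, against the 247 to 428 of the astrocytes. Ratios that reached above those of astrocytes were not particular to Agrp nuclei. They were 1000 to 2000 in the neuron cluster n23.Sst/Unc13c. Oligodendrocytes had 343 to 969 and ependymal nuclei 315 to 1000, and both overlapped the astrocytes. Tanycytes had 172 to 269. In Agrp nuclei the summed astrocyte-marker level was 0 to 62.1 CPM after FGF1 and 25.7 to 131 CPM after vehicle. Their Agrp neuron markers were at 18235 to 51524 CPM after FGF1 and 9379 to 28512 CPM after vehicle. General neuronal markers were lower after FGF1 in these nuclei, at 1450 to 1990 CPM against 2438 to 3257 CPM after vehicle, without overlap. The part of astrocyte RNA in the Serpina3n values of Agrp nuclei was not tested.

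**Figure D1:**
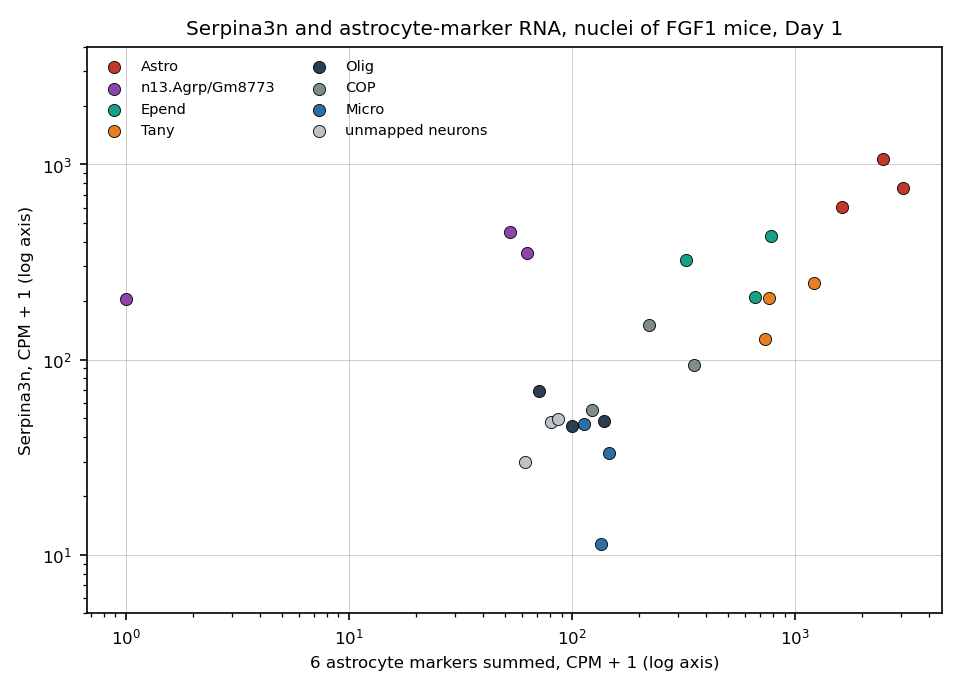
Serpina3n level against the summed level of 6 astrocyte markers in Day 1 nuclei of the 3 FGF1 mice (CPM + 1 without TMM scaling, both axes logarithmic; each point is 1 mouse in 1 cell type). Agrp neurons lie high on the Serpina3n axis, at 203 to 449.7 CPM, with 0 to 62.1 CPM of astrocyte markers, while astrocytes lie at 602 to 1064 CPM with 1623 to 3052 CPM of astrocyte markers.

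GABA15, an inhibitory neuron cluster by its name, had 186 ± 35.7 CPM in the 2 FGF1 mice with at least 10 nuclei. Vehicle mice had no Serpina3n UMI there, so FGF1 was at least 9.43-fold higher with the vehicle group set at a floor of 3 UMIs. That bound rests on 2 mice in each group and covers counting error only, not the spread between mice. GABA15 carried Agrp neuron markers at 11686 to 24036 CPM after FGF1 and 7947 to 18650 CPM after vehicle. Both ranges overlapped those of n13.Agrp/Gm8773, so these markers do not set GABA15 apart from Agrp neurons. It gave 923 to 1500 Serpina3n UMIs per 1000 astrocyte-marker UMIs after FGF1. Several other neuron clusters also had their FGF1 mice above their vehicle mice at lower levels. Unmapped neurons, those without a projected name, had 47.5, 49.2 and 29.0 CPM in FGF1 mice and 2.07, 6.28 and 6.75 CPM in vehicle mice, with a log2 fold change of 3.06 ± 0.41 and 516 against 43 UMIs. The cluster n29.Nr5a1/Adcyap1, of ventromedial type by its name, had 25.9 ± 7.26 against 3.44 ± 3.08 CPM (log2 fold change 3.02 ± 0.63). The cluster n16.Rgs16/Vip had 45.2 ± 7.54 against 7.36 ± 7.98 CPM (2.48 ± 0.86). Thinned to 1000 UMIs, 3.13 to 4.21% of unmapped neurons and 0 to 3.98% of n29.Nr5a1/Adcyap1 nuclei were positive after FGF1, overlapping the 0 to 4.11% of microglia. The unmapped neurons had 60.9 to 86.0 CPM of astrocyte markers and 474 to 593 Serpina3n UMIs per 1000 astrocyte-marker UMIs. The part of astrocyte RNA in those values was not tested.

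Ependymal cells and tanycytes, which line the third ventricle, followed Agrp neurons in the order of levels. Ependymal nuclei had 411, 208 and 320.0 CPM after FGF1 and 16.2, 15.9 and 118 CPM after vehicle, from only 13 to 23 nuclei per mouse (means 313 ± 102 and 50.2 ± 59.1; log2 fold change 2.58 ± 0.56). Tanycytes, elongated glia that contact both the ventricle and the arcuate nucleus, had 230.0, 234 and 126 CPM after FGF1 and 27.4, 34.9 and 106 CPM after vehicle (197 ± 61.5 and 56.1 ± 43.4; 2.01 ± 0.52). In both types the groups did not overlap, and vehicle mouse 3 lay well above the other vehicle mice. Thinned to equal depth, tanycyte shares were 4.0 to 21.0% after FGF1 and 3.12 to 30.0% after vehicle and the thinned log2 fold change was 0.79 ± 0.81. The ependymal one was 2.15 ± 1.08 after thinning, with shares of 13.04 to 16.7% and 0 to 16.7%. Thinning was a single random draw, and the spread between draws was not measured. Before it, tanycytes held 129 Serpina3n UMIs after FGF1 and 17 after vehicle, and ependymal nuclei held 63 and 10. Astrocyte markers in these types were lower after FGF1 than after vehicle, at 731 to 1217 against 1483 to 2399 CPM in tanycytes and 323 to 781 against 1386 to 1575 CPM in ependymal nuclei.

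In the oligodendrocyte lineage, which makes myelin, committed precursors had 93.5, 151 and 54.7 CPM after FGF1 and 0, 9.20 and 13.7 CPM after vehicle (log2 fold change 3.73 ± 0.62). Oligodendrocytes had 68.7, 47.4 and 45.4 CPM after FGF1 and 8.20, 10.6 and 7.96 CPM after vehicle (2.52 ± 0.43). The groups did not overlap in either type. Thinning left 0 to 7.32% of oligodendrocyte nuclei positive after FGF1 and 1.32 to 3.45% after vehicle, which overlapped. It lowered the log2 fold change to 1.10 ± 0.78. That was the same single draw, from 63 Serpina3n UMIs after FGF1 and 12 after vehicle. Microglia had 31.2, 46.0 and 10.4 CPM after FGF1 and 0, 4.79 and 9.54 CPM after vehicle. Vascular and leptomeningeal nuclei were the exception on Day 1, with 347 and 33.3 CPM after FGF1 and 12.2, 21.3 and 73.4 CPM after vehicle, and were the only described type whose groups overlapped.

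By mean level, the Day 1 FGF1 order ran from astrocytes through Agrp neurons, ependymal nuclei, tanycytes, vascular and leptomeningeal nuclei and GABA15 neurons to committed precursors. Astrocytes and Agrp neurons did not overlap, and neither did GABA15 neurons and committed precursors. The other neighbours down to the committed precursors overlapped over the mice. After vehicle the highest types were tanycytes, ependymal nuclei, vascular and leptomeningeal nuclei and astrocytes, and these neighbours all overlapped. In bulk sums of this kind, fewer positive nuclei and less RNA per nucleus cannot be told apart, and the shares above are given for that reason.

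**Figure D2:**
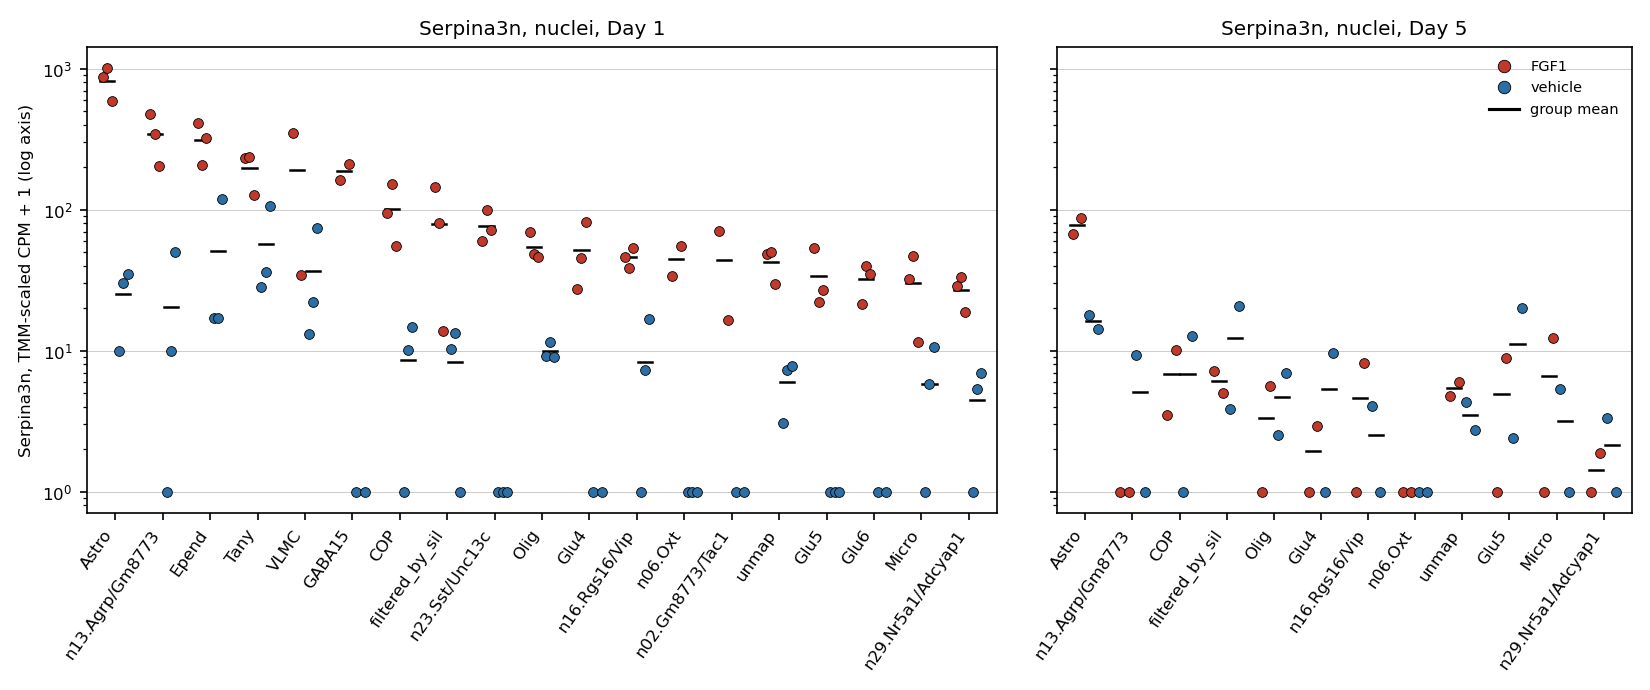
Serpina3n level per mouse in each nuclear cell type on Day 1 and Day 5 (TMM-scaled CPM + 1 on a logarithmic axis; points are mice, the black line is the group mean). On Day 1 the FGF1 astrocytes sit at 585 to 1008 CPM and the vehicle astrocytes at 9.03 to 34.2 CPM, and on Day 5 at 66.7 to 86.7 and 13.3 to 16.96 CPM.

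On Day 5 nuclear Serpina3n was still higher after FGF1 in astrocytes, at lower levels than on Day 1. FGF1 mice 37 and 45 had 66.7 and 86.7 CPM in astrocytes. Vehicle mice 28 and 38 had 16.96 and 13.3 CPM. The groups did not overlap, with means of 76.7 ± 14.2 and 15.1 ± 2.59 CPM (SD, n = 2 and 2), a log2 fold change of 2.25 ± 0.46 and within-batch log2 ratios of 1.91 to 2.62. Serpina3n was detected in 95 of 494 astrocyte nuclei, with at most 3 UMIs, against 12 of 241. Per mouse the shares were 18.0 to 23.6% (5.45 to 8.85% thinned) and 4.81 to 6.06% (0 to 1.44% thinned). Agrp nuclei had Serpina3n in 0 of 57 after FGF1 and in 1 of 57 after vehicle. With the nuclei of both FGF1 mice counted together, 0 of 57 allows up to 5.26% of nuclei with a UMI, a limit that covers counting error only and not the spread between mice. Oligodendrocytes had 0 and 4.64 CPM after FGF1 and 1.51 and 5.94 CPM after vehicle. Microglia had 0 and 11.3 CPM against 4.32 and 0 CPM. Unmapped neurons were at 3.79 and 5.04 CPM after FGF1 and 3.30 and 1.76 CPM after vehicle, a log2 fold change of 0.62 ± 0.48. Every other nuclear type with at least 2 mice in each group overlapped on Day 5. Tanycytes, ependymal nuclei and GABA15 neurons had too few mice for that comparison. Tanycytes held 7 Serpina3n UMIs in 141 nuclei after FGF1 and 0 in 23 after vehicle. Ependymal nuclei held 6 in 67 and 1 in 11, and GABA15 neurons 0 in 44 and 2 in 26. The days were different mice in different batches, and the change from Day 1 to Day 5 was not tested.

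In whole cells of the second cohort on Day 5, astrocyte-like cells again had the highest Serpina3n level in both groups. FGF1 mice 7, 28, 6, 21, 10 and 36 had 193, 120.0, 772, 147, 133 and 97.7 CPM. Vehicle mice 29, 27, 22, 20, 35 and 25 had 41.2, 40.6, 87.4, 43.0, 44.4 and 35.5 CPM. Mouse 6 stood far above the other FGF1 mice and mouse 22 above the other vehicle mice. The groups did not overlap, and the FGF1 mouse was higher in 6 of 6 batches, with log2 ratios of 1.43 to 3.13. The means were 244 ± 261 and 48.7 ± 19.2 CPM (SD, n = 6 and 6), with a log2 fold change of 2.26 ± 0.58. Without mouse 6 the log2 fold change was 1.46 ± 0.24, and without vehicle mouse 22 it was 2.53 ± 0.63. The astrocyte-like cells lay in deposited clusters 1 and 4, of which cluster 1 held most of the vehicle cells (7940 of 8637) and cluster 4 most of the FGF1 cells (3412 of 4943). Within cluster 1 Serpina3n was at 30.6 to 158 CPM after FGF1 and 29.9 to 50.5 CPM after vehicle, a log2 fold change of 0.88 ± 0.22. Within cluster 4 it was at 140.0 to 921 and 37.3 to 233 CPM, a log2 fold change of 0.94 ± 0.68. Serpina3n was itself among the genes that set cluster 4 apart, so the sizes of the clusters are given only to show where the cells lay.

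Pericyte-like cells came next by mean level and overlapped astrocyte-like cells. They were at 23.5 to 311 CPM after FGF1 and 0 to 77.7 CPM after vehicle, from 21 and 3 UMIs in all. The 311 CPM was FGF1 mouse 6, from 9 UMIs in 20 cells. The other glia of the mediobasal hypothalamus had lower levels. Oligodendrocyte precursor-like cells, the dividing progenitors of the lineage, had 40.3, 47.8, 153, 34.1, 34.8 and 36.0 CPM in the FGF1 mice in the same order. The vehicle mice had 16.4, 31.2, 22.0, 17.9, 17.5 and 21.7 CPM. The groups did not overlap and the FGF1 mouse was higher in 6 of 6 batches. The means were 57.7 ± 47.0 and 21.1 ± 5.43 CPM (SD, n = 6 and 6), with a log2 fold change of 1.41 ± 0.39. Mouse 6 had the 153 CPM, and no fit without it was made for this type. Oligodendrocyte-like cells ran from 15.9 to 136 CPM after FGF1 and from 11.0 to 20.6 CPM after vehicle (1.48 ± 0.49, and 0.99 ± 0.24 without mouse 6). Tanycyte-like cells ran from 13.03 to 114 and from 7.90 to 16.3 CPM (1.11 ± 0.52, and 0.73 ± 0.21 without mouse 6). Both types were higher after FGF1 in 5 of 6 batches, and their groups overlapped. Ependymal-like cells ran from 3.78 to 449 and from 5.99 to 18.1 CPM (1.14 ± 0.84, and 0.82 ± 0.42 without mouse 6), with 1.90 ± 0.81 under the batch block and 2.65 ± 0.97 by DESeq2, and the top value came from 12 UMIs in 19 cells. Microglia-like cells ran from 20.9 to 223 and from 0 to 29.4 CPM (2.63 ± 0.89, and 1.23 ± 0.66 without mouse 6).

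FGF1 mouse 6 had the highest value of all 12 mice in each of these types. Its levels were 772 CPM in astrocyte-like, 153 in precursor-like, 136 in oligodendrocyte-like, 114 in tanycyte-like, 449 in ependymal-like, 223 in microglia-like and 79.9 CPM in endothelial-like cells. Its 2388 cells had a median of 1142 UMIs, a median mitochondrial share of 11.1% and a ribosomal share of 11.7%, all inside the range of the other mice. Relative to 1000 astrocyte-marker UMIs it had 85.2 Serpina3n UMIs in astrocyte-like, 78.6 in precursor-like, 80.3 in oligodendrocyte-like and 91.8 in tanycyte-like cells. It had 62.7 in endothelial-like, 112 in microglia-like and 364 in ependymal-like cells. In the astrocyte-like cells of the other FGF1 mice that ratio was at most 18.4. In vehicle mice the ratio was 4.23 to 9.87 in astrocyte-like, 6.55 to 12.0 in precursor-like and 5.53 to 13.45 in oligodendrocyte-like cells. It was 3.37 to 5.80 in tanycyte-like and 2.56 to 10.2 in ependymal-like cells of vehicle mice. Ratios like those of astrocyte-like cells were therefore not particular to mouse 6. The part of free astrocyte RNA in the values of non-astrocyte types, in mouse 6 or in any other mouse, was not tested.

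**Figure D3:**
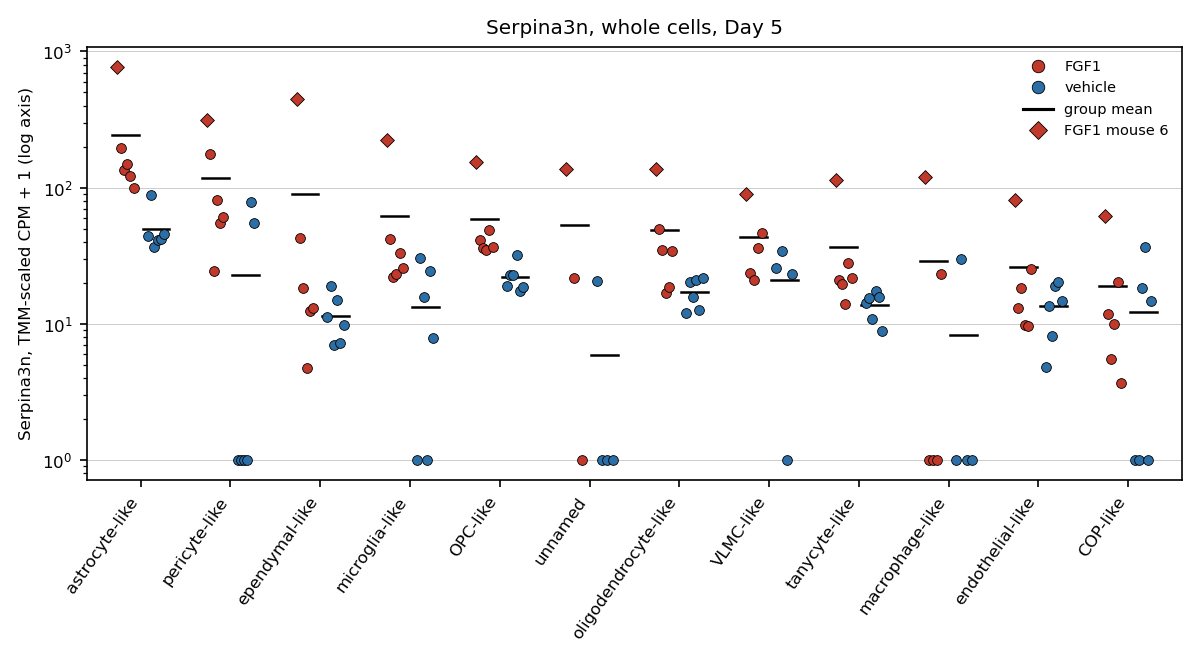
Serpina3n level per mouse in each type of whole cells on Day 5 (TMM-scaled CPM + 1 on a logarithmic axis; points are mice, the black line is the group mean, the diamond is FGF1 mouse 6). FGF1 astrocyte-like cells sit at 97.7 to 772 CPM above vehicle cells at 35.5 to 87.4 CPM, and mouse 6 is the highest FGF1 mouse in the types described.

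Cells were thinned to 700 UMIs to compare shares. Among astrocyte-like cells 6.74 to 32.9% were positive after FGF1, with mouse 6 at 32.9% and the others up to 12.3%, and 2.15 to 5.44% after vehicle. Unthinned, the shares were 10.52 to 43.4% and 3.45 to 7.74%. The microglia-like background was 1.37 to 8.04% after FGF1 and 0 to 1.61% after vehicle thinned, and 2.74 to 15.04% and 0 to 4.07% unthinned. Oligodendrocyte-like shares were 1.27 to 7.35% and 0.680 to 1.22%, tanycyte-like shares 0.946 to 6.21% and 0.246 to 1.13%, and ependymal-like shares 0.588 to 21.1% and 0.325 to 1.99%. The microglia-like 8.04% was mouse 6, and the other FGF1 mice reached at most 3.90%. In mouse 6, unthinned, 15 of 286 microglia-like cells held 2 or more Serpina3n UMIs, and 1 cell held 20. The astrocyte-like maximum in that mouse was 16. Whether its microglia-like cells carried Serpina3n of their own, beside free RNA, was not tested. Thinned precursor-like shares were 0 to 11.5% after FGF1 and 0.2075 to 2.56% after vehicle, so these groups overlapped in shares though not in level. Oligodendrocyte-like, tanycyte-like and precursor-like shares overlapped the microglia-like range of their own group. Precursor-like and ependymal-like shares passed the top of that range in mouse 6 after FGF1 and in vehicle mouse 27.

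Over the 6 FGF1 mice, the level in astrocyte-like cells (log2 CPM) correlated with that in ependymal-like cells at r = 0.92 (rho = 0.600), in microglia-like cells at r = 0.96 (rho = 0.543), in oligodendrocyte-like cells at r = 0.85 (rho = 0.600), in precursor-like cells at r = 0.94 (rho = 0.314) and in tanycyte-like cells at r = 0.87 (rho = 0.0857). These values are a description with no test, because Serpina3n levels chose the gene and the types of a mouse share its library. Without mouse 6, r was 0.46, 0.48, 0.31, 0.03 and -0.35 in that order. Without mice 6 and 7, the mice farthest from the median, it was -0.57, -0.53, -0.55, -0.34 and -0.69. Over the 6 vehicle mice r ran from 0.03 to 0.68.

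Genes of the pathways that Serpina3n belongs to were tested with edgeR's quasi-likelihood test across all genes, with Benjamini-Hochberg adjusted p under 0.05 called. The lists held 127 genes in all and were chosen with earlier results known. On Day 1, 94 of 6063 genes were called in astrocytes, 1.55% of those tested, and 13 of 45 listed genes passed, all higher. Without vehicle mouse 1, which gave 57 astrocyte nuclei, 0 of 7719 genes and 0 of 50 listed genes were called there. In tanycytes 323 of 3534 genes (9.14%) and 10 of 25 listed genes were called, 8 higher and 2 lower. In ependymal nuclei 277 of 1456 genes (19.0%) and 4 of 13 listed genes were called, 3 higher and 1 lower. In oligodendrocytes 16 of 7192 genes (0.222%) and 3 of 25 listed genes were called, all higher. Median log2 fold changes of the listed genes were 0.26, 0.37, 0.36 and 0.29 in those types, against -0.01, 0.03, -0.05 and 0.02 over all genes.

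The pan-reactive astrocyte list, genes shared by reactive astrocytes of different origin, was the most often called list in astrocytes on Day 1. Of 9 tested, 7 were higher (Timp1, Hspb1, Osmr, Cd44, Vim, S1pr3 and Aspg), with a list median of 4.20. Timp1, which inhibits matrix metalloproteinases, rose by a log2 fold change of 7.76 ± 0.91 (662 ± 263 against 1.71 ± 2.97 CPM, adjusted p = 0.00285), a fitted value that is no bound because vehicle was near 0. Hspb1, a small heat shock protein, rose by 6.94 ± 0.79 and Osmr, the oncostatin M receptor, by 3.84 ± 0.48 (adjusted p = 0.00350). In tanycytes 5 of 6 were higher, with a median of 2.88, led by Timp1 (6.56 ± 0.75), Cd44, a hyaluronan receptor (3.57 ± 0.51), and Vim, an intermediate filament (2.79 ± 0.50). In ependymal nuclei 2 of 4 were higher, Cd44 at 2.63 ± 0.54 and Vim at 2.44 ± 0.34. In oligodendrocytes the 1 gene tested, Vim, was higher (3.15 ± 0.55).

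Of the gp130, JAK and STAT3 list, 3 of 9 genes were higher in Day 1 astrocytes. These were Socs3, the feedback inhibitor of STAT3 signalling (6.71 ± 0.72; 132 ± 32.9 against 0.571 ± 0.989 CPM), Clcf1, a cytokine of the family (5.23 ± 0.83, adjusted p = 0.0114), and Osmr. In tanycytes 2 of 4 were higher, Socs3 (3.77 ± 0.69) and Osmr (2.74 ± 0.61). In oligodendrocytes 1 of 4 was higher, Stat3 itself (1.97 ± 0.30), and in ependymal nuclei 0 of 2. The oligodendrocyte calls were fragile, since with batch as a block no gene was called there, and the Stat3 call was lost in 6 of 11 and the Vim call in 8 of 11 alternatives. Among glucocorticoid-responsive genes, none of 13 was called in astrocytes (median -0.38) and 2 of 7 were lower in tanycytes, Tsc22d3, which encodes the glucocorticoid-induced leucine zipper (-2.05 ± 0.44), and Glul, glutamine synthetase (-1.71 ± 0.42). In ependymal nuclei 1 of 4 was lower, Tsc22d3 (-2.65 ± 0.58), and in oligodendrocytes 0 of 12 were called (median 0.30).

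Other serpins tested were few. On Day 1, 2 of 5 were called in astrocytes and 1 of 3 in tanycytes, all higher, with 0 of 4 in oligodendrocytes and 0 of 1 in ependymal nuclei. Serpinh1, a collagen chaperone, was higher in Day 1 astrocytes (3.35 ± 0.66, adjusted p = 0.0297). That call was lost in 5 alternatives and kept in 6. None of the 24 other clade A serpins had enough counts to be tested in any comparison. Among genes of disease-associated oligodendrocytes, Anxa2 (4.26 ± 0.51; 291 ± 16.96 against 15.3 ± 6.28 CPM), Socs3 and the alarmin Il33 (2.89 ± 0.46, adjusted p = 0.0114) were higher in astrocytes, 3 of 9 tested. Il33 was the 1 called of 4 in oligodendrocytes (2.74 ± 0.33). Anxa2 was higher in tanycytes (2.86 ± 0.49), where 2 of 6 were called, and in ependymal nuclei (2.76 ± 0.34), where 1 of 2 was called. Acute-phase genes had 0 of 4 called in astrocytes, 0 of 2 in ependymal nuclei and 0 of 2 in tanycytes.

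On Day 5 in whole cells the listed genes split by direction. In astrocyte-like cells 1240 of 9830 genes (12.6%) and 18 of 48 listed genes were called, 11 higher and 7 lower. In tanycyte-like cells 533 of 10494 genes (5.08%) and 10 of 50 listed genes were called, 5 in each direction. In oligodendrocyte-like cells 190 of 8438 genes (2.25%) and 5 of 39 listed genes were called, and in ependymal-like cells 86 of 6735 genes (1.28%) and 3 of 37. Pan-reactive genes were the higher ones in astrocyte-like cells, with 5 of 5 called (Cd44 2.54 ± 0.26, Vim 1.92 ± 0.22, Osmr 1.89 ± 0.32, Gfap and Aspg), a median of 2.13. Of them 4 of 7 were higher in tanycyte-like, 2 of 3 in oligodendrocyte-like and 0 of 4 in ependymal-like cells. Within astrocyte-like cluster 1 alone 31 of 7679 genes (0.404%) and 3 of 38 listed genes were called, and within cluster 4 alone 23 of 5967 genes (0.385%) and 1 of 30 listed genes.

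The gp130 list in astrocyte-like cells had Il6st, the gp130 gene (1.13 ± 0.15, adjusted p = 6.03e-06), Osmr and Stat3 among the higher genes and Cntfr, the ciliary neurotrophic factor receptor (-0.45 ± 0.13), lower. In tanycyte-like cells Osmr was higher (1.27) and Cntfr lower (-0.99). Glucocorticoid-responsive genes were lower where called in astrocyte-like cells, with 4 of 16 (Dusp1 -1.88 ± 0.24, Nfkbia -1.05 ± 0.18, Tsc22d3 -0.83 ± 0.12 and Ddit4) and a median of -0.31. Of them 2 of 15 were lower in tanycyte-like, 2 of 11 in ependymal-like and 0 of 14 in oligodendrocyte-like cells. Acute-phase genes had A2m, alpha-2-macroglobulin, higher (1.31 ± 0.34) and Itih3 lower (-0.63 ± 0.11) of 3 tested in astrocyte-like cells, 0 of 4 in ependymal-like cells, and Itih3 as the lower gene in tanycyte-like and oligodendrocyte-like cells (-1.45 and -0.97). Serpine2, a brain inhibitor of thrombin, was higher in astrocyte-like cells (0.29 ± 0.10, adjusted p = 0.0440) and lower in tanycyte-like cells (-0.65). The astrocyte-like call was lost in 11 alternatives and kept in 6, and the tanycyte-like call was lost in 4 and kept in 13. Of the disease-associated oligodendrocyte list, 2 of 10 were called in astrocyte-like cells, Anxa2 higher (1.45 ± 0.24) and the cell cycle inhibitor Cdkn1a lower (-1.35 ± 0.20). In oligodendrocyte-like cells 2 of 10 were higher, Anxa2 (1.05) and Il33 (0.97). Anxa2 was the 1 called of 10 in tanycyte-like (0.66) and of 8 in ependymal-like cells (0.55), higher in both. The ependymal-like call was lost in 8 alternatives and kept in 9. Exons of Anxa2, Cdkn1a, Clcf1, Dusp1, Glul, S1pr3 and Stat3, and of Dlgap1, Malat1, Meg3, Rpl13a, Rpl24, Scd2 and Slc1a2, which are named later, overlap those of other annotated genes, so their counts are less certain.

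**Figure D4:**
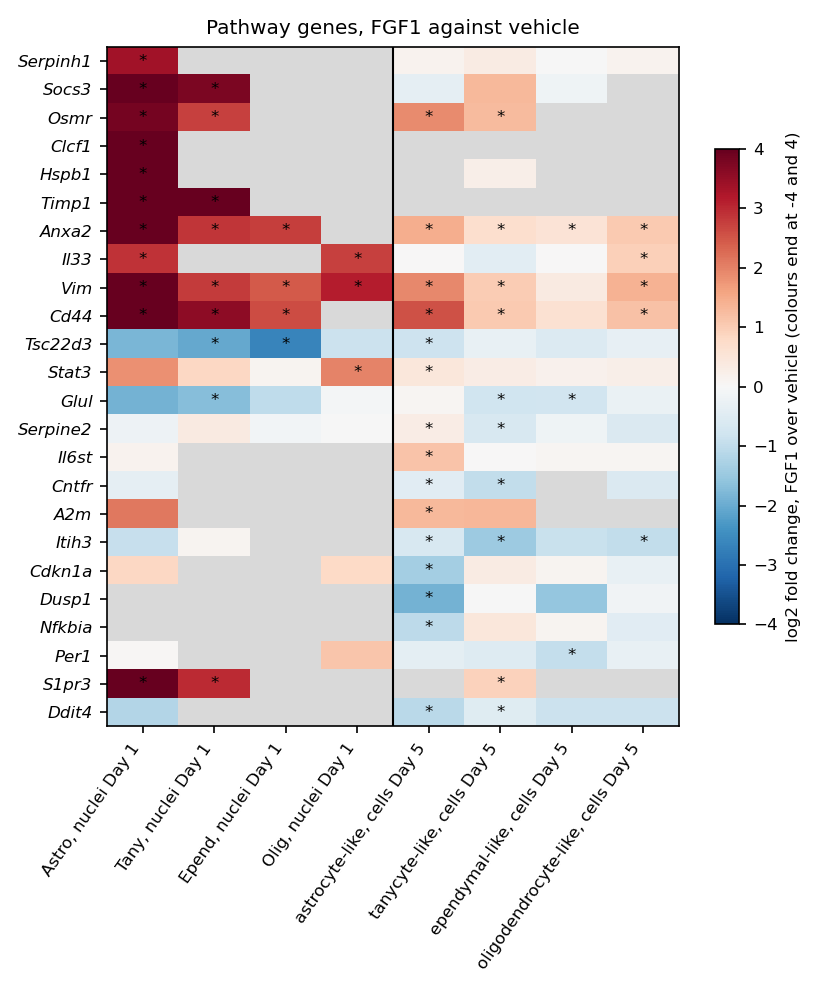
Log2 fold change, FGF1 against vehicle, of 24 pathway genes in 4 nuclear types on Day 1 and 4 whole-cell types on Day 5 (colour scale from -4 to 4; stars mark adjusted p under 0.05, grey marks genes not tested). Timp1, Cd44, Vim and Osmr are higher in several types, and Tsc22d3 is lower wherever it is called.

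Within mice, Serpina3n-positive whole cells were compared with negative ones of the same type, with mouse as a block and every cell thinned to 700 UMIs. Positive cells came from the same mice as negative ones, so this contrast did not use the FGF1 to vehicle difference. In vehicle astrocyte-like cells 1 of 2750 genes was called (0.0364%), Gfap, the astrocyte intermediate filament (log2 fold change 2.11 ± 0.20, adjusted p = 2.65e-23). It was higher in positive cells in 5 of 6 mice, at 485 ± 387 against 115 ± 71.3 CPM (SD, n = 6). By edgeR, 117 of the 2750 genes had an unadjusted p under 0.05, a share that is itself under 0.05. Vehicle mouse 22 had 104 of the positive cells and mouse 27 had 10. Within cluster 1 alone, which holds most vehicle astrocyte-like cells, the Gfap difference was -0.23 ± 0.56 (adjusted p = 0.998) and no gene was called. Gfap and Serpina3n are both among the genes that set cluster 4 apart. A fit that leaves cluster 4 out therefore cannot decide whether they go together in vehicle astrocyte-like cells.

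In FGF1 astrocyte-like cells 7 of 2988 genes (0.234%) were called, 5 higher and 2 lower in positive cells. These names were read after their values were seen. Gfap was higher in 6 of 6 mice (0.92 ± 0.10, adjusted p = 6.11e-14; 1036 ± 864 against 559 ± 300 CPM), from 1061 to 2712 CPM in mouse 6 and from 391.9 to 447 CPM in mouse 21. H2-K1, a class I major histocompatibility gene, was higher in 6 of 6 mice (0.93 ± 0.19), the complement gene C4b in 5 of 6 (0.66 ± 0.14), S100a6 in 5 of 6 (0.55 ± 0.10) and Aqp4, the water channel of astrocyte endfeet, in 6 of 6 (0.38 ± 0.10, adjusted p = 0.0398). Malat1 and Rpl24 were lower. In the vehicle mice C4b differed by 0.76 ± 0.22 (adjusted p = 0.391), H2-K1 by 0.22, S100a6 by 0.24 and Aqp4 by 0.01. Within cluster 4 alone, which holds most FGF1 astrocyte-like cells, Gfap alone was called (0.69 ± 0.10, adjusted p = 4.47e-07). Within cluster 1 alone, with 3 mice, none was called. C4b and Aqp4, like Gfap, are among the genes that set cluster 4 apart. A call lost within 1 cluster therefore does not decide whether they go with Serpina3n. Without mouse 6, which gave 189 of the positive cells, 3 genes were called, 1 higher and 2 lower. The higher one was Gfap, so the other higher calls rested on mouse 6. The number by DESeq2 was 1.

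**Figure D5:**
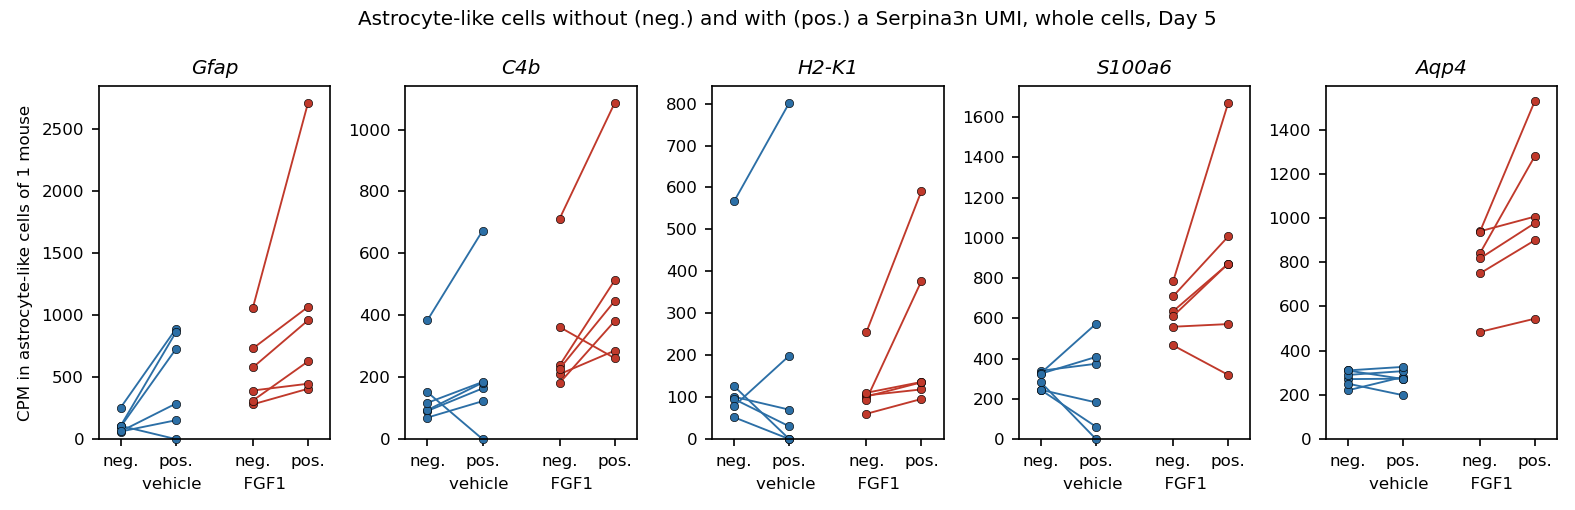
Level of 5 genes in Serpina3n-negative and Serpina3n-positive astrocyte-like whole cells (CPM, thinned to 700 UMIs; each line is 1 mouse, vehicle blue and FGF1 red). Gfap is higher in positive cells in 5 of 6 vehicle mice and 6 of 6 FGF1 mice.

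In tanycyte-like cells of FGF1 mice 6 of 1421 genes (0.422%) were called between positive and negative cells. Clu, clusterin (0.86 ± 0.19), Slc1a2, the glutamate transporter GLT-1 (0.62 ± 0.14), Scd2 (0.57 ± 0.14) and Aldoc (0.46 ± 0.11) were higher and Meg3 (-0.55 ± 0.14) and Fos (-0.45 ± 0.12) were lower. Slc1a2 is 1 of the 6 astrocyte markers. The 3 astrocyte markers tested had a median of 0.59, against -0.04 over all genes and 0.31 for the 3 tanycyte markers tested. The part of astrocyte RNA in these calls was not tested. No gene was called by DESeq2 or without mouse 7. Without mouse 6, 90 of 4834 genes were called, 1 higher and 89 lower, and the median over all genes was -0.43 rather than 0. In vehicle tanycyte-like cells only 1 mouse had enough positive cells. In oligodendrocyte-like cells of FGF1 mice 7 of 1950 genes (0.359%) were called, with Dlgap1 (2.14 ± 0.47), Slc30a9 (2.09 ± 0.47) and Slc4a4 (1.42 ± 0.35) higher and, among the lower genes, Actb (-0.56), Malat1 (-0.37) and Rpl13a (-0.63). The median over all genes was -0.21, RLE scaling called 3 higher and 0 lower, and no gene was called without mouse 7, 28 or 36. The 5 astrocyte markers tested had a median of 0.50 and none was called, and the part of astrocyte RNA was not tested here either. In those of vehicle mice, 159 of 5513 genes (2.88%) were called from 3 mice, all lower in positive cells, led by Rcbtb1 (-3.50 ± 1.07). The median over all genes there was -0.74 rather than 0, and DESeq2 called none.

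The genes whose level followed Serpina3n most closely over libraries were found by Pearson's r of log2 CPM. It is given without a test because libraries of a mouse share depth and types share composition. FGF1 and vehicle libraries were also pooled, so the FGF1 to vehicle difference that chose Serpina3n enters r. Over 223 nuclear libraries of 30 types, Timp1 (0.69), Gfap (0.68), Mt1 (0.66), Anxa2 (0.66) and Mt2 (0.64) came first of 10693 genes. Mt1 and Mt2 encode metallothioneins, which bind zinc and are induced by metals and glucocorticoids. Over 136 whole-cell libraries of 13 types, Gfap (0.59), A830080D01Rik (0.49), Igtp (0.48), Akt2 (0.48) and Mier3 (0.48) came first of 9915 genes.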

How the data were processed

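Hypothalamic nuclei (10 libraries) and whole cells (12 libraries) were profiled by droplet 3′ RNA sequencing. The authors aligned the reads, with introns counted for nuclei, and deposited raw UMI counts per gene and cell together with their annotation and, for whole cells, the percent of UMIs from mitochondrial and ribosomal genes, which the authors computed. Cell Ranger 1.2, Seurat and the builds GRCm38 and mm10 are named in the submitters' processing notes. The authors removed doublets from whole cells only, removed neurons from whole cells, and integrated nuclei across samples; no doublet caller was run here. The deposited counts were summed per mouse and type where a mouse had at least 10 cells and each group at least 2 mice.

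edgeR 4.0.16 (R 4.3.3) was used with its expression filter, TMM scaling and the quasi-likelihood test, at a Benjamini-Hochberg adjusted p under 0.05. Serpina3n was kept in each fit whatever the filter gave. SE is the log2 fold change divided by the square root of F. The study's own summed-count test, DESeq2 (1.42.0), was an alternative, as were RLE scaling, no filter, replicate and batch blocks, thinning (1000 and 700 UMIs, seed 1), removal of 4382 cells above 20% mitochondrial or ribosomal counts, and leaving out each mouse. Bounds against groups with no count used a floor of 3 UMIs over the group. Permutation p-values of the relation over mice, which the design planned, are not printed, because they would test the levels that chose the gene. Fits were tested on simulated counts.

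Serpina3n and the gene lists were chosen with earlier results of these data known. Named genes were, of each list, at most 3 called genes per comparison and direction with the smallest adjusted p, the 5 genes most like Serpina3n (mean of at least 10 CPM), and, for positive against negative cells, the 5 highest and 3 lowest called genes in vehicle mice. Genes named from the FGF1 mice, and list members named without values, were chosen after their values were seen. Some genes that the rule names are not reported here. Promoters are from RefSeq. Library totals ran from 2652897 to 16345981 UMIs, and a type with few nuclei had few Serpina3n UMIs.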

Additional observations from a re-analysis of the deposited data

Results flagged for a closer look

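Serpina3n values were compared in 30 sets of 6 mice (1 measure in 1 type and group). By Dixon's criterion, 16 sets held a mouse whose value lay far from the others. The sets share mice and cells and are not independent, so this count is a description with no test. Of the 16, 13 were FGF1 mouse 6 of the whole cells. Its levels were 772 CPM in astrocyte-like, 153 in oligodendrocyte precursor-like, 136 in oligodendrocyte-like, 114 in tanycyte-like, 449 in ependymal-like, 223 in microglia-like, 79.9 in endothelial-like and 60.9 CPM in committed precursor-like cells. Its thinned shares of positive cells were 32.9% in astrocyte-like, 11.5% in precursor-like, 7.35% in oligodendrocyte-like, 6.21% in tanycyte-like and 21.1% in ependymal-like cells. Vehicle mouse 22 stood apart in astrocyte-like cells, at 87.4 CPM and a thinned share of 5.44%. Vehicle mouse 27 stood apart in ependymal-like cells, with a thinned share of 1.99%.

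Serpina3n was also measured in nuclei that no named type holds. Unmapped neurons of FGF1 mice had a mean of 41.9 CPM on Day 1 and 4.42 CPM on Day 5, against 5.03 and 2.53 CPM in vehicle mice. Nuclei that the authors' silhouette filter set aside had 78.4 against 7.26 CPM on Day 1, and 5.09 against 11.2 CPM on Day 5, where the vehicle mean was the higher.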

How the results depend on the processing

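Over all alternatives, 271 values of the comparisons stayed as reported, 58 moved and 12 reversed, and of the named genes 798 values stayed, 182 lost their call and 3 reversed; causes were not tested. The same-numbered Day 1 mice share only a number (correlations of -0.573 to 0.609 in astrocytes): with the replicate block, pathway genes called were 13 in astrocytes, 4 in ependymal nuclei, 10 in tanycytes and 1 in oligodendrocytes, and Serpina3n log2 fold changes were 5.13, 2.68, 2.04 and 2.50, and 4.78 in Agrp neurons. With the batch block, pathway genes called were 8 in astrocytes, 0 in oligodendrocytes and 5 in ependymal-like cells; with no filter they were 9 in ependymal nuclei, 11 in oligodendrocytes, 16 in tanycytes and 5 in ependymal-like cells; DESeq2 called 8 in oligodendrocyte-like cells. Thinned, the Serpina3n log2 fold change was 1.10 in oligodendrocytes, 0.79 in tanycytes and 2.53 in Day 5 astrocytes; within single clusters it was 0.88 (cluster 1), 0.94 (cluster 4) and 1.96 (tanycyte-like cluster 10), and in ependymal-like cells 2.65 with DESeq2 and 1.90 with the batch block. The FGF1 minus vehicle share fell from 57.0 to 39.9 points (astrocytes), 11.1 to 0.816 (tanycytes), 25.5 to 9.90 (ependymal), 11.2 to 1.97 (oligodendrocytes) and 41.6 to 18.1 (Agrp) by thinning, and to 43.9, 15.9 and 3.91 points in astrocytes, ependymal nuclei and oligodendrocytes with at least 2 UMIs. Genes called between positive and negative cells: with no thinning 13 (vehicle astrocyte-like), 16 (FGF1 astrocyte-like), 28 and 22 (vehicle and FGF1 oligodendrocyte-like) and 50 (tanycyte-like); with DESeq2 1 (FGF1 astrocyte-like), 0 and 1 (vehicle and FGF1 oligodendrocyte-like) and 0 (tanycyte-like); with RLE 2 and 3 in oligodendrocyte-like cells; in cluster 1 alone 0 in either group and in cluster 4 alone 1, both added after the data were seen. Gfap reversed in cluster 1 to -0.23 (vehicle) and -0.013 (FGF1), and Aqp4 to -0.26. The described correlations with the astrocyte-like level reversed for thinned vehicle shares (tanycyte-like -0.19, ependymal-like -0.33, precursor-like -0.84) and, without the 2 farthest mice, in FGF1 mice to -0.69, -0.57, -0.55, -0.34 and -0.53 and in vehicle mice to -0.87, -0.44, -0.15 and -0.76. Leaving out each mouse gave pathway genes called of 0 to 15 (astrocytes), 4 to 6 (ependymal nuclei), 0 to 2 (oligodendrocytes), 4 to 14 (tanycytes), 14 to 20 (astrocyte-like), 1 to 6 (ependymal-like), 3 to 8 (oligodendrocyte-like) and 7 to 11 (tanycyte-like); without vehicle mouse 1 of Day 1 no gene at all was called in astrocytes or oligodendrocytes and 4 listed genes in tanycytes, and without vehicle mice 20 and 22 of the cells the ependymal-like count was 1 and 6. Serpina3n log2 fold changes then ran from 4.72 to 5.31 (astrocytes), 2.04 to 2.56 (Day 5 astrocytes), 2.16 to 4.19 (ependymal nuclei, highest without vehicle mouse 3), 2.28 to 2.70 (oligodendrocytes), 1.59 to 2.64 (tanycytes), 4.01 to 6.07 (Agrp), 1.46 to 2.53 (astrocyte-like), 0.78 to 1.46 (ependymal-like), 1.23 to 3.02 (microglia-like), 0.99 to 1.66 (oligodendrocyte-like) and 0.73 to 1.24 (tanycyte-like), and genes called between positive and negative cells from 3 to 10 (FGF1 astrocyte-like), 1 to 1 (vehicle astrocyte-like), 0 to 5 (FGF1 oligodendrocyte-like) and 0 to 90 (tanycyte-like). Calling a cell positive from 2 UMIs left too few mice for a fit. Few ependymal nuclei and few Serpina3n UMIs outside astrocytes limit these values.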
